A study of Rattus norvegicus with 12 samples.

Results

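The expression of genes for cholesterol synthesis, uptake, regulation and efflux was examined by RNA sequencing of cerebral cortex from adult male Sprague Dawley rats. The genes were chosen by symbol, as a list of 36, and 34 of them were among the 17268 genes of the count table. They comprised 16 of 18 listed synthesis enzymes and all 18 listed genes of regulation, uptake and intracellular transport, and efflux and clearance. Fdps and Nsdhl were not analysed here. The 12 libraries fell into 4 groups of 3. Sham rats underwent the carotid surgery and received no clot. In Model rats, a blood clot prepared outside the body was injected into the middle cerebral artery, and no further treatment was given. The rt-PA rats received the same clot and, at 6 h, intravenous recombinant tissue plasminogen activator, which dissolves fibrin. The rt-PA+Acu rats were given acupuncture at 2 h, at the points GV26 and PC6, and then rt-PA at 6 h. The study's design text names the left PC6, and its methods name PC6 on both sides. No group with acupuncture alone was analysed here, so acupuncture was measured on top of rt-PA only. The time at which cortex was taken for sequencing, and whether a library came from 1 rat or several, were not given in the sources used here. All p-values therefore measure the spread between the 3 libraries of a group.

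Cholesterol in the brain is made locally, because the blood-brain barrier keeps out plasma lipoproteins. Acetyl-CoA is built into mevalonate, isoprenoids and squalene, and squalene is cyclised and trimmed to cholesterol. When sterols in the endoplasmic reticulum run low, SCAP carries the transcription factor SREBP to the Golgi for activation, and INSIG proteins hold it back when sterols are plentiful. Oxidised sterols activate the liver X receptors, which favour efflux through ABC transporters, and neurons clear cholesterol mainly by 24-hydroxylation. Oligodendrocytes use large amounts of cholesterol for myelin, and astrocytes supply it to neurons.

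The libraries held 11678450 to 13616935 counts. Levels are given as CPM, read counts scaled to a common library size across all 12 libraries, and 3 counts, the floor below which no level is read, corresponded to 0.208 to 0.262 CPM. This floor covers counting error only. A gene was called where its p from the quasi-likelihood test of edgeR, adjusted by Benjamini-Hochberg across the genes tested for that pair of groups, was under 0.05. Called genes that also changed more than 2-fold are referred to as DEGs. Neuron markers were present in every library, with a summed level of the 6 markers of 4855, 4787 and 5583 CPM in Sham, 4653, 4869 and 5083 in Model, 3778, 4566 and 4692 in rt-PA and 6004, 6242 and 4147 in rt-PA+Acu. In 3 groups, 1 library stood apart from the others. The chi-square statistic per gene between the counts of 2 libraries was 37.1 and 21.2 for pairs with Model replicate 3, against 13.1 for the other Model pair. It was 36.03 and 26.1 for pairs with rt-PA replicate 2, against 17.3, and 53.3 and 37.4 for pairs with rt-PA+Acu replicate 3, against 20.8. Pairs of Sham libraries gave 9.01 to 13.2. No 2 libraries held identical values.

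**Figure D1:**
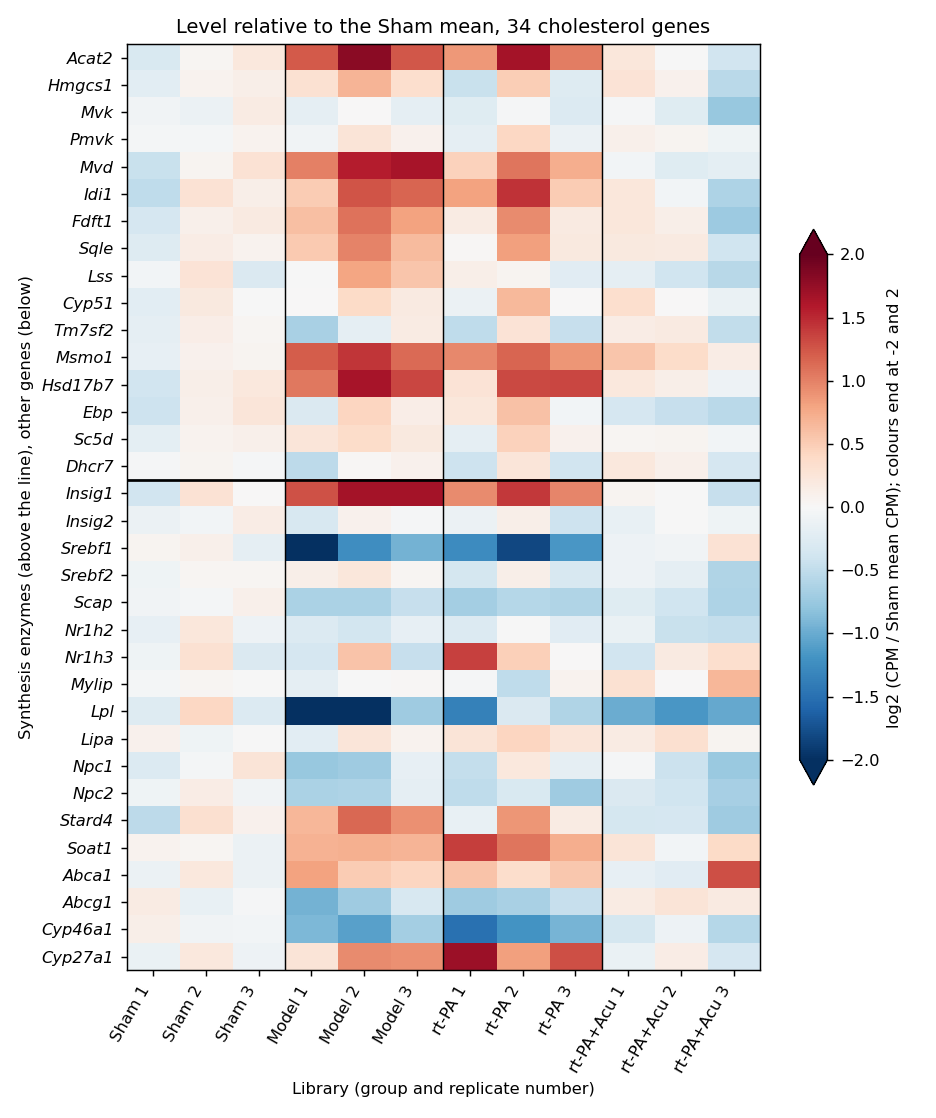
Heat map of 34 genes (vertical axis) in 12 libraries (horizontal axis, 3 for each group). Colour gives log2 of the CPM over the Sham mean, and colours end at -2 and 2. Acat2, Msmo1 and Insig1 are red in the 6 Model and rt-PA libraries and close to white in most Sham and rt-PA+Acu libraries, while Srebf1 and Cyp46a1 are blue in those 6.

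The comparison of Model with Sham asks what the clot changed. Of the 16 synthesis enzymes, 8 were higher in Model, 0 were lower and 8 were not called. Over all 12884 genes tested, 27.3% were called higher and 26.6% lower. The 8 were Acat2, Hmgcs1, Mvd, Idi1, Fdft1, Sqle, Msmo1 and Hsd17b7, and they were spread from the first condensation of acetyl-CoA to the removal of the methyl groups of the sterol. The median log2 fold change of the 16 enzymes was 0.47, beside 0.01 over all genes. DEGs numbered 5 among the enzymes, where 21.5% of all genes tested were DEGs in either direction. In the median enzyme, the log2 level relative to the Sham mean was 0.27, 0.73 and 0.45 in the 3 Model libraries and -0.21, 0.09 and 0.11 in the 3 Sham libraries. No p-value was computed for this median.

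Acat2, the cytosolic thiolase that joins acetyl-CoA units at the start of the pathway, measured 40.3, 51.2 and 57.3 CPM in Sham, 116, 174 and 118 in Model, 90.8, 156 and 101 in rt-PA and 57.9, 49.2 and 37.8 in rt-PA+Acu. Every Model library was above every Sham library, 2.75-fold on average (log2 fold change 1.46, SE 0.19, adjusted p = 0.000381). Mvd, which decarboxylates mevalonate diphosphate, measured 16.4, 23.2 and 27.3 CPM in Sham, 45.0, 66.5 and 69.9 in Model, 30.8, 46.8 and 36.9 in rt-PA and 21.5, 18.9 and 19.4 in rt-PA+Acu. Its Model libraries all lay above the Sham range, with Model replicate 1 the lowest of them (log2 fold change 1.44, SE 0.22, adjusted p = 0.000845). Idi1, the isomerase that makes the reactive isoprenoid unit, measured 30.0, 52.1 and 46.4 CPM in Sham, 60.8, 103 and 95.9 in Model, 74.9, 117 and 60.9 in rt-PA and 50.1, 41.2 and 27.9 in rt-PA+Acu. The groups did not overlap, though Model replicate 1 came close to Sham replicate 2 (log2 fold change 1.02, SE 0.24, adjusted p = 0.00759).

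Fdft1, squalene synthase, commits the pathway to sterols and measured 92.3, 125 and 132 CPM in Sham, 177, 246 and 203 in Model, 130.3, 224 and 131 in rt-PA and 136, 126 and 70.5 in rt-PA+Acu. The Model libraries were the 3 highest of the 6 (log2 fold change 0.85, SE 0.16, adjusted p = 0.00261). Msmo1, the methyl sterol oxidase, measured 141, 166 and 164 CPM in Sham, 364, 424 and 343 in Model, 305, 351 and 289.6 in rt-PA and 231, 202 and 175 in rt-PA+Acu. The lowest Model library, at 343 CPM, was far over the highest Sham library at 166 CPM, with the smallest adjusted p among the members (log2 fold change 1.27, SE 0.11, adjusted p = 6.02e-05). Hsd17b7, the keto-sterol reductase that acts in the same demethylation, measured 4.19, 5.89 and 6.29 CPM in Sham, 11.4, 17.0 and 13.7 in Model, 6.59, 13.7 and 13.8 in rt-PA and 6.32, 5.93 and 5.07 in rt-PA+Acu. Its groups were again separate (log2 fold change 1.37, SE 0.23, adjusted p = 0.00144).

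**Figure D2:**
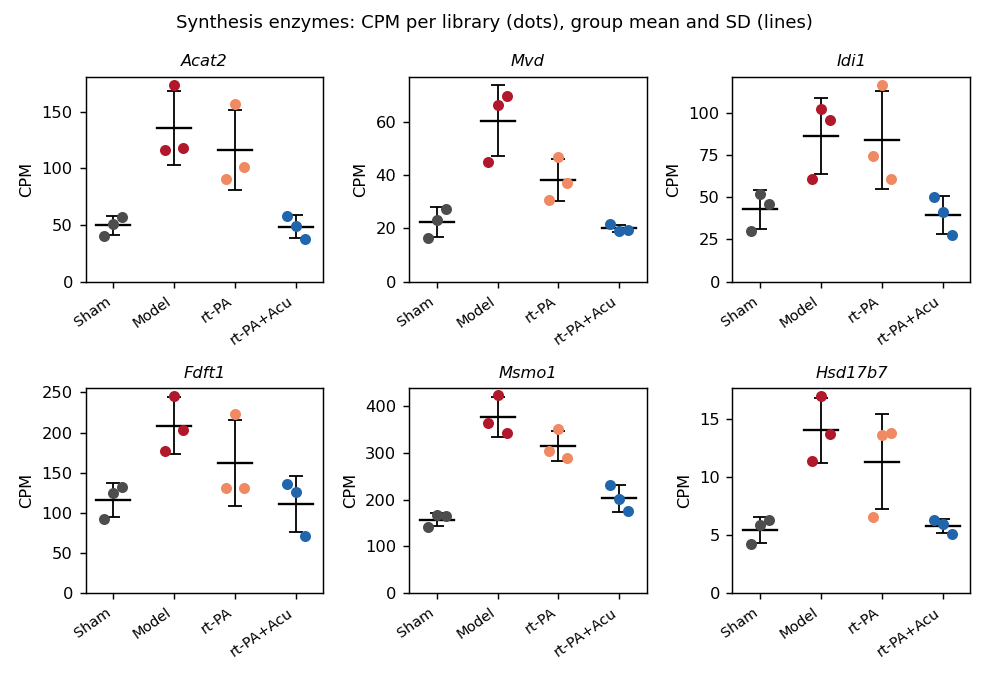
Level in CPM (vertical axis, from 0) of 6 synthesis enzymes in the 3 libraries of each group (horizontal axis). Dots are libraries, and lines give the mean and SD. In each panel the Model dots lie above the Sham dots, as for Acat2 at 116 to 174 against 40.3 to 57.3 CPM.

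Sqle, squalene epoxidase, rose by 0.74 on the log2 scale (SE 0.15, adjusted p = 0.00367), and Hmgcs1, which makes HMG-CoA, by 0.45 (SE 0.13, adjusted p = 0.0174). Hmgcs1 was not called with all 12 libraries in 1 fit (adjusted p = 0.148), without Sham replicate 1 (adjusted p = 0.0699) or without Model replicate 2 (adjusted p = 0.0627). The 8 enzymes that were not called were the mevalonate pathway kinases Mvk and Pmvk, and Lss, Cyp51, Tm7sf2, Ebp, Sc5d and Dhcr7, which act on the sterol rings. Their log2 fold changes ran from -0.18 for Tm7sf2 to 0.48 for Lss, the cyclase that closes the sterol rings, with adjusted p from 0.0556 to 0.693. Without Model replicate 3, the library that stood apart, 9 enzymes were higher and 0 lower.

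Promoter sequences from RefSeq (rat build GRCr8, 250 bases before to 50 after the start site) were found for 13 synthesis enzymes and 15 of the other genes. None was matched for Pmvk, Fdft1, Sqle, Lpl, Stard4 or Abcg1. They were searched on both strands for TCACNCCAC, a form of the sterol regulatory element, and for CCAAT, the box bound by NF-Y, a factor that acts beside SREBP at many sterol genes. The first motif occurred in 0 of the 28 genes and in 1.12% of all 33469 promoters. At so low a share, 0 of 28 was likely in any case, and it does not show that these genes lack such elements. Other forms of the element were not searched. CCAAT occurred in 10 of 13 synthesis enzymes and 10 of 15 other genes, and in 37.5% of all promoters. The promoters of Acat2, the enzyme with the largest change, and of Cyp51 and Dhcr7 held no CCAAT. A match is a description of these letters only. Promoters of 3 called enzymes that hold the box are shown as examples, 5′ to 3′ along the gene, with CCAAT, or ATTGG where it lies on the opposite strand, in capitals. They lie at chr19:67414925-67415224 on the minus strand (Mvd), chr17:66547475-66547774 on the minus strand (Idi1) and chr16:29746863-29747162 on the plus strand (Msmo1).
Mvd: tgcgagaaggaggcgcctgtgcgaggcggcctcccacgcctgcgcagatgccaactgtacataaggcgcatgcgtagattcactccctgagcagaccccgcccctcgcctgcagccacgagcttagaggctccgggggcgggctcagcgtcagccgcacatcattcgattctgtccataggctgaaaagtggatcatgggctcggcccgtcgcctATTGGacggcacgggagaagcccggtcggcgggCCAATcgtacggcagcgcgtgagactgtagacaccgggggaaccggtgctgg
Idi1: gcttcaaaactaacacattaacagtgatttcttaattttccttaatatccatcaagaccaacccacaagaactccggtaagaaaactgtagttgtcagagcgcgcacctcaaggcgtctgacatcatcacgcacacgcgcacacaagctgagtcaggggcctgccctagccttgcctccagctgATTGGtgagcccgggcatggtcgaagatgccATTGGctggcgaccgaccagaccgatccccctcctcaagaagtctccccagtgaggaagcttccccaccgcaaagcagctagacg
Msmo1: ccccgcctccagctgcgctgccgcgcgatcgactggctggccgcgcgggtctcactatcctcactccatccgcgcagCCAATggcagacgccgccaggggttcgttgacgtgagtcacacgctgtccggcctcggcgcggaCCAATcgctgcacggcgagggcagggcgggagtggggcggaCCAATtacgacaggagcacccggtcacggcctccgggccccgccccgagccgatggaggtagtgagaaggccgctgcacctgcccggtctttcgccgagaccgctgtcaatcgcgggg

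Among the 18 other genes, 5 rose and 7 fell in Model relative to Sham, and 6 were not called. The count of higher genes was close to the share over all genes, 27.3%. Over all genes, 26.6% were lower. Their median log2 fold change was -0.06, and 3 were DEGs. Of the 8 regulators, 1 rose and 2 fell. Insig1, which retains the SCAP-SREBP complex in the endoplasmic reticulum and is itself an SREBP target, measured 71.7, 114 and 93.9 CPM in Sham, 226, 295 and 294 in Model, 179, 248 and 184 in rt-PA and 96.7, 92.8 and 67.5 in rt-PA+Acu. Model ran from 226 CPM upward and Sham reached no more than 114 CPM, a 2.93-fold rise (log2 fold change 1.55, SE 0.18, adjusted p = 0.00021). Srebf1, the gene of the SREBP form that favours fatty acid synthesis, moved the other way and measured 50.1, 52.0 and 42.9 CPM in Sham, 11.3, 20.5 and 25.0 in Model, 20.1, 13.7 and 21.5 in rt-PA and 44.8, 46.2 and 59.3 in rt-PA+Acu. Its Model libraries were all under the Sham libraries, with a 2.55-fold fall (log2 fold change -1.35, SE 0.25, adjusted p = 0.00234). Scap, the sterol-sensing escort, measured 144, 148 and 163 CPM in Sham, 98.0, 98.3 and 111 in Model, 95.3, 103 and 99.6 in rt-PA and 129, 115 and 98.8 in rt-PA+Acu. It fell, with no overlap of the groups (log2 fold change -0.56, SE 0.09, adjusted p = 0.0012). Srebf2, the form that drives cholesterol synthesis, was not called (log2 fold change 0.14, SE 0.08, adjusted p = 0.195), and neither were Insig2, the liver X receptor genes Nr1h2 and Nr1h3, or Mylip, a ligase that marks lipoprotein receptors for degradation. Their log2 fold changes were -0.07 for Insig2, -0.25 for Nr1h2, -0.00 for Nr1h3 and -0.04 for Mylip.

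Of the 6 genes of uptake and intracellular transport, 2 rose, 3 fell and 1, the lysosomal lipase gene Lipa, was not called. Over all genes tested, 27.3% were higher and 26.6% lower. Lpl, which hydrolyses lipoprotein triglyceride, measured 29.2, 46.3 and 28.8 CPM in Sham, 5.95, 6.94 and 21.2 in Model, 13.6, 28.4 and 22.9 in rt-PA and 17.5, 15.4 and 17.1 in rt-PA+Acu. Model replicates 1 and 2 were far under Sham, and Model replicate 3 was nearer to it (log2 fold change -1.61, SE 0.45, adjusted p = 0.0162). The call was lost without Sham replicate 2 (adjusted p = 0.0638) or Model replicate 2 (adjusted p = 0.0584), and without Model replicate 3 the log2 fold change was -2.42. Stard4, a soluble carrier of cholesterol between membranes, measured 22.2, 39.7 and 33.7 CPM in Sham, 50.7, 70.7 and 60.3 in Model, 28.7, 59.1 and 35.8 in rt-PA and 25.1, 25.3 and 19.5 in rt-PA+Acu. All Model libraries were above the Sham range (log2 fold change 0.93, SE 0.21, adjusted p = 0.00591). Soat1, which esterifies cholesterol for storage in lipid droplets, measured 30.4, 29.6 and 26.8 CPM in Sham, 47.0, 47.5 and 46.2 in Model, 75.3, 61.0 and 47.6 in rt-PA and 34.6, 27.8 and 37.6 in rt-PA+Acu. The 3 Model libraries lay within 46.2 to 47.5 CPM, above all Sham libraries (log2 fold change 0.70, SE 0.10, adjusted p = 0.000558). Npc1 and Npc2, which export cholesterol from lysosomes, fell by 0.51 (SE 0.19, adjusted p = 0.0468) and 0.46 (SE 0.14, adjusted p = 0.0218) on the log2 scale. Both calls were lost with library size alone in place of scaling (adjusted p = 0.0846 for Npc1 and 0.0509 for Npc2), and the groups overlapped for Npc1. The Npc1 call was lost with all 12 libraries in 1 fit too (adjusted p = 0.0775). The calls were also lost without Sham replicate 2, Model replicate 1 or Model replicate 2 for both genes, and without Sham replicate 3 for Npc1, at adjusted p of 0.0632 to 0.164.

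All 4 genes of efflux and clearance were called, 2 in each direction, where 27.3% of all genes tested were higher and 26.6% lower. The ABC transporters Abca1 and Abcg1, both liver X receptor targets that pass cholesterol to lipoprotein particles, went opposite ways. Abca1 measured 41.7, 52.1 and 41.6 CPM in Sham, 79.2, 64.5 and 60.9 in Model, 66.8, 57.6 and 65.6 in rt-PA and 40.2, 38.7 and 111 in rt-PA+Acu. Its Model libraries were above the Sham libraries (log2 fold change 0.60, SE 0.14, adjusted p = 0.00659), but it was not called with all 12 libraries in 1 fit (adjusted p = 0.147). Abcg1 measured 89.4, 72.2 and 78.8 CPM in Sham, 41.8, 48.8 and 64.5 in Model, 49.1, 51.3 and 58.0 in rt-PA and 89.8, 95.6 and 90.5 in rt-PA+Acu. Its Model libraries were below the Sham libraries (log2 fold change -0.63, SE 0.16, adjusted p = 0.0112). Cyp46a1, the neuronal 24-hydroxylase through which cholesterol leaves the brain, measured 216, 189 and 191 CPM in Sham, 106, 93.8 and 123 in Model, 70.4, 86.5 and 104 in rt-PA and 155, 185 and 134 in rt-PA+Acu. Sham stayed at or over 189 CPM and Model at or under 123 CPM (log2 fold change -0.88, SE 0.12, adjusted p = 0.000453). Cyp27a1, the mitochondrial 27-hydroxylase, measured 4.03, 5.12 and 4.10 CPM in Sham, 5.27, 8.55 and 8.34 in Model, 14.5, 7.83 and 10.8 in rt-PA and 4.05, 4.89 and 3.51 in rt-PA+Acu. Model replicate 1 was just above the Sham range (log2 fold change 0.74, SE 0.26, adjusted p = 0.0375), and the call was lost in 5 of the 6 fits that left out 1 library, with adjusted p of 0.0583 to 0.123 there, and kept without Model replicate 1. Without Model replicate 3, 4 of the 18 genes were higher and 7 lower.

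**Figure D3:**
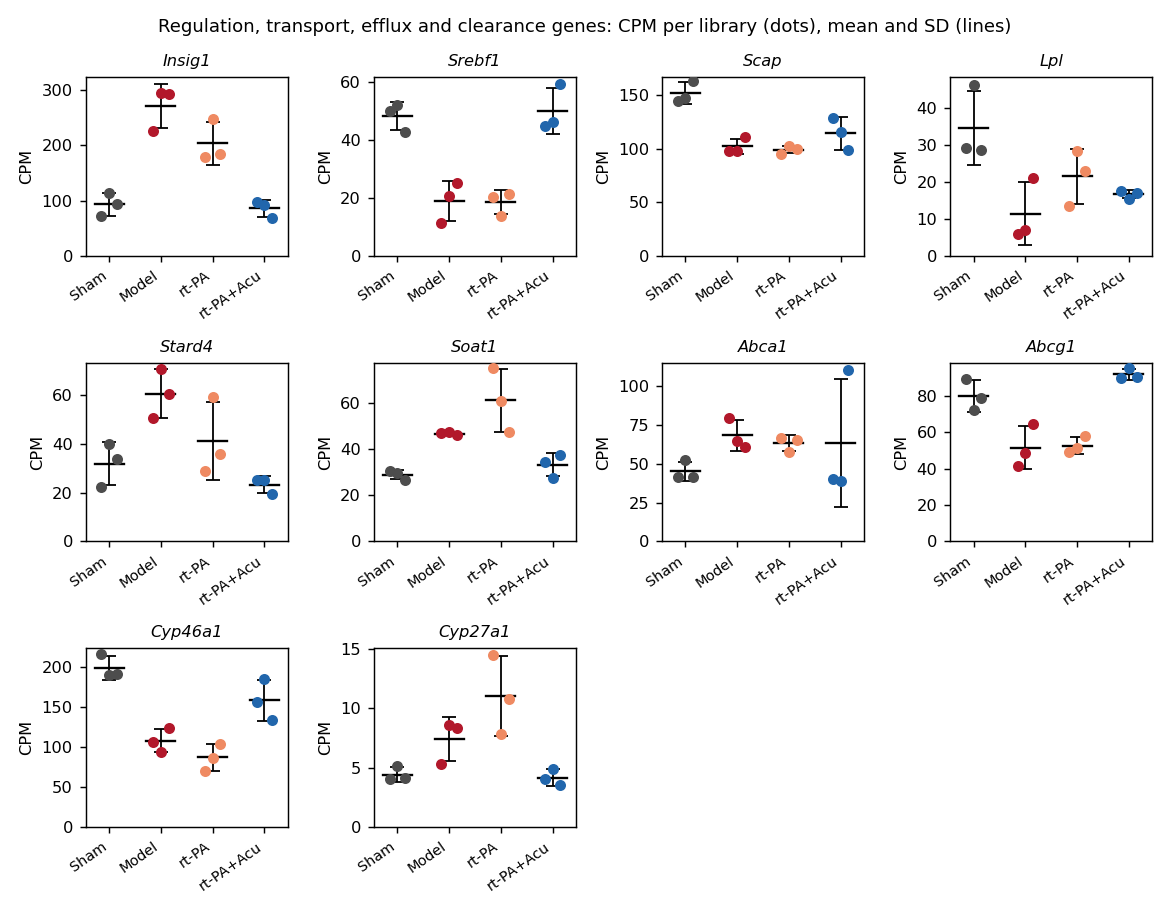
Level in CPM (vertical axis, from 0) of 10 genes of regulation, transport, efflux and clearance in the 3 libraries of each group (horizontal axis). Dots are libraries, and lines give the mean and SD. Srebf1, Abcg1 and Cyp46a1 are low in Model and rt-PA, Insig1 and Soat1 are high there, and the Abca1 dots of rt-PA+Acu spread from 38.7 to 111 CPM.

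Of 36 further genes of sterol metabolism and its fatty acid branch that were tested, 10 were higher and 13 lower in Model, and their median log2 fold change was -0.03. The count of higher genes was near the share over all genes, 27.3%, and 26.6% of all genes were lower. Among the largest changes were those of 3 genes. Plin2, the coat protein of lipid droplets, measured 9.67, 8.94 and 9.08 CPM in Sham, 163, 115 and 119 in Model, 248, 178 and 110.0 in rt-PA and 13.2, 15.0 and 39.4 in rt-PA+Acu. It was 14.4-fold higher in Model (log2 fold change 3.85, SE 0.16, adjusted p = 4.31e-06), and no Sham library came near any Model library. A pair of oxysterol genes moved in opposite directions. Ch25h, the 25-hydroxylase, rose (log2 fold change 1.25, SE 0.34, adjusted p = 0.0148), and Cyp7b1, the hydroxylase that degrades 25- and 27-hydroxycholesterol, fell (log2 fold change -1.82, SE 0.26, adjusted p = 0.000597).

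The comparison of rt-PA with Model asks what late thrombolysis added to the clot. No member was called. By edgeR, 0 of 12941 genes were higher (0%), 0 were lower (0%) and 0 were DEGs (0%), with 1284 genes at an unadjusted p under 0.05. DESeq2 called 192 genes, none of them a member, and edgeR called 3, 1 and 2 genes without Model replicate 3, rt-PA replicate 1 and rt-PA replicate 3, and 3 with all 12 libraries in 1 fit. At an unadjusted p under 0.05 stood 2 of 16 synthesis enzymes and 2 of 18 other genes. Log2 fold changes were negative for 14 of the 16 enzymes and positive for 2, with a median of -0.17 beside 0.00 over all genes. The lowest adjusted p of a member was that of Mvd (log2 fold change -0.66, SE 0.21, adjusted p = 0.383). In the median enzyme, the log2 level relative to the Sham mean was 0.07, 0.62 and 0.04 in the rt-PA libraries, so rt-PA replicate 2 lay within the Model range and the other 2 lay below it. Soat1 was higher in all 3 rt-PA libraries than in any Model library, and was not called (log2 fold change 0.39, SE 0.16, adjusted p = 0.493).

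The comparison of rt-PA+Acu with rt-PA asks what acupuncture changed in rats given the same thrombolysis. It shares no library with the comparison of Model with Sham. Among the synthesis enzymes, 6 of 16 fell with acupuncture, 0 rose and 10 were not called. Over the 12999 genes tested, 17.7% were lower, 17% were higher and 15.3% were DEGs. The 4522 genes called became 2694 and 2958 without rt-PA replicates 1 and 3, and 2850 and 2496 without rt-PA+Acu replicates 1 and 2. The 6 were Acat2, Mvd, Idi1, Msmo1, Hsd17b7 and Ebp, the isomerase that shifts the double bond of the sterol nucleus. Acat2 and Idi1 were DEGs. The median log2 fold change of the 16 enzymes was -0.37, beside 0.00 over all genes. Of these 6, 5 had risen in Model over Sham and 0 had fallen there. The share is near that of all genes: of the 2255 called lower here and tested in both comparisons, 80.8% had risen in Model over Sham and 0.532% had fallen. In the median enzyme, the log2 level relative to the Sham mean was 0.20, 0.05 and -0.40 in the 3 rt-PA+Acu libraries.

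Acat2 was 2.4-fold lower in rt-PA+Acu, whose libraries at 37.8 to 57.9 CPM did not reach the rt-PA libraries at 90.8 to 156 CPM (log2 fold change -1.27, SE 0.24, adjusted p = 0.00747). Mvd was 1.91-fold lower, with no overlap (log2 fold change -0.93, SE 0.17, adjusted p = 0.00709). Msmo1 was 1.55-fold lower, and its rt-PA+Acu libraries also lay wholly under the rt-PA libraries (log2 fold change -0.64, SE 0.14, adjusted p = 0.0115). Idi1 was 2.12-fold lower (log2 fold change -1.08, SE 0.28, adjusted p = 0.0233), and its call was lost without rt-PA replicate 2 (adjusted p = 0.0512) or rt-PA+Acu replicate 2 (adjusted p = 0.0704). Hsd17b7 (log2 fold change -0.97, SE 0.31, adjusted p = 0.0427) and Ebp (log2 fold change -0.72, SE 0.21, adjusted p = 0.0336) also did not overlap, and each lost its call in 5 of the 6 fits without 1 library, at adjusted p up to 0.133 and 0.1. The fits that kept the call were those without rt-PA replicate 1 for Hsd17b7 and without rt-PA replicate 3 for Ebp. Both calls were also lost with a replicate block (adjusted p = 0.0877 for Hsd17b7 and 0.061 for Ebp), which left 4 enzymes called. Fdft1 (log2 fold change -0.55, SE 0.29, adjusted p = 0.184), Sqle (log2 fold change -0.37, SE 0.24, adjusted p = 0.26) and Hmgcs1 (log2 fold change -0.01, SE 0.29, adjusted p = 0.975), which had risen in Model, were not called here.

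The count of enzymes depended on single libraries. It was 3, all lower, without rt-PA replicate 2, and likewise 3 without rt-PA+Acu replicate 2. It was 4, all lower, without rt-PA+Acu replicate 3. With rt-PA replicate 2 and rt-PA+Acu replicate 3 both left out, a choice made after seeing the data, Acat2, Mvd, Idi1 and Msmo1 were lower, and Hmgcs1 (log2 fold change 0.52, adjusted p = 0.0241) and Dhcr7 (0.55, adjusted p = 0.0302), the reductase that yields cholesterol from its 7-dehydro precursor, were higher.

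**Figure D4:**
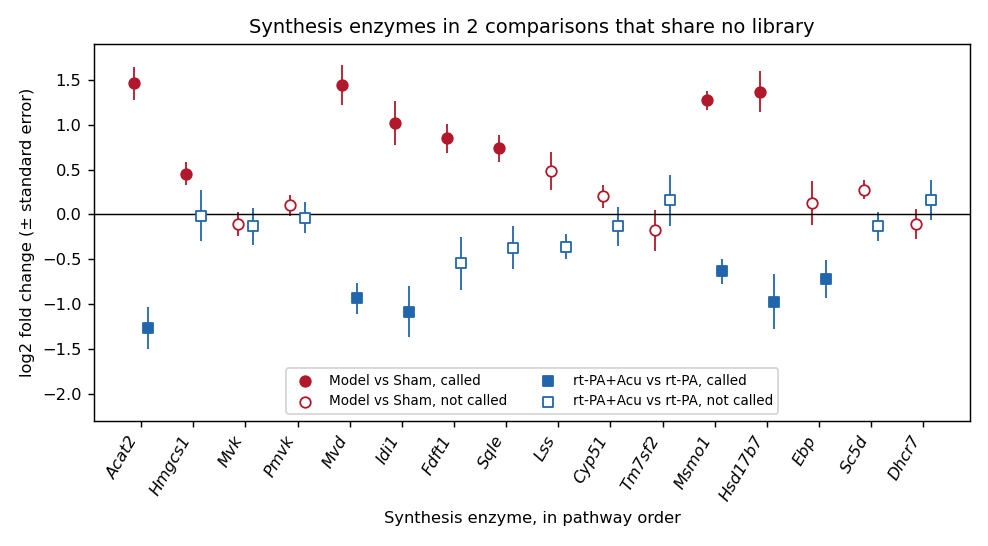
Log2 fold change (vertical axis) of 16 synthesis enzymes in pathway order (horizontal axis) in Model over Sham (red circles) and rt-PA+Acu over rt-PA (blue squares). Bars are standard errors, and filled symbols passed the test. Filled circles lie above 0, up to 1.46 for Acat2, and filled squares lie below 0, down to -1.27 for Acat2.

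Among the 18 other genes, 3 rose and 4 fell in rt-PA+Acu relative to rt-PA, close to the shares over all genes, and 11 were not called. Their median log2 fold change was -0.12. All 7 had been called in Model over Sham, each with the opposite sign, as had 83.4% of all 4454 genes called here and tested in both comparisons, so such a reversal was not particular to the members. Insig1 was 2.37-fold lower and its groups were separate (log2 fold change -1.25, SE 0.18, adjusted p = 0.00352). Srebf1 was 2.72-fold higher, at 44.8 to 59.3 CPM against 13.7 to 21.5 CPM (log2 fold change 1.44, SE 0.20, adjusted p = 0.00306). Scap was not called (log2 fold change 0.21, SE 0.12, adjusted p = 0.21), and Srebf2 was not called (log2 fold change -0.11, SE 0.18, adjusted p = 0.664).

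In transport, Soat1 was 1.84-fold lower (log2 fold change -0.88, SE 0.19, adjusted p = 0.0128) and Stard4 1.77-fold lower (log2 fold change -0.82, SE 0.27, adjusted p = 0.0467). The Stard4 call was lost in 5 of the 6 fits without 1 library, at adjusted p of 0.0749 to 0.104, and kept without rt-PA replicate 1. It was also lost with a replicate block (adjusted p = 0.0508). The log2 fold change was -0.47 without rt-PA replicate 2. Lpl was not called (log2 fold change -0.37, SE 0.26, adjusted p = 0.292). In clearance, Cyp46a1 was 1.82-fold higher (log2 fold change 0.86, SE 0.18, adjusted p = 0.00988), Abcg1 1.74-fold higher (log2 fold change 0.80, SE 0.11, adjusted p = 0.00256) and Cyp27a1 2.66-fold lower (log2 fold change -1.41, SE 0.28, adjusted p = 0.00881), all 3 without overlap. Abca1 had a log2 fold change of 0.00 (SE 0.39, adjusted p = 0.995), which rested on rt-PA+Acu replicate 3 at 111 CPM. Without that library it was lower in rt-PA+Acu (log2 fold change -0.68, adjusted p = 0.00529). Without rt-PA+Acu replicate 3 the count of called genes was again 3 higher and 4 lower, with Abca1 in place of Stard4. Without rt-PA replicate 2 it was 3 higher and 3 lower.

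Of the 36 further pathway genes tested, 7 rose and 5 fell with acupuncture, and the median of their log2 fold changes was 0.08. These counts were near the shares over all genes, 17% higher and 17.7% lower. Plin2 was 7.87-fold lower (log2 fold change -2.98, SE 0.48, adjusted p = 0.00468) and Ch25h 3.75-fold lower (log2 fold change -1.91, SE 0.49, adjusted p = 0.0212), and Cyp7b1 was 2.2-fold higher (log2 fold change 1.14, SE 0.21, adjusted p = 0.00689). For Plin2, rt-PA+Acu replicate 3 was the highest of its group, and all 3 lay under the rt-PA libraries. Without that library Plin2 was 12.6-fold lower. Ch25h measured 7.33, 3.59 and 6.46 CPM in Sham, 8.93, 13.1 and 19.2 in Model, 16.7, 33.2 and 18.4 in rt-PA and 3.62, 3.49 and 10.9 in rt-PA+Acu. Without rt-PA+Acu replicate 3 it was 6.36-fold lower, and its call was lost without rt-PA replicate 2 (adjusted p = 0.0555), rt-PA+Acu replicate 1 (0.0645) or rt-PA+Acu replicate 2 (0.0715). These checks of the further genes were chosen after seeing the data.

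The comparison of rt-PA+Acu with Sham, which shares libraries with the comparisons above, asks what still differed from unstroked cortex. By edgeR, 0 of 16 synthesis enzymes were called, with 2 at an unadjusted p under 0.05, a smaller share than over all genes, and DESeq2 also called 0. Of the 18 other genes, 1 was lower and 0 were higher. Over the 12775 genes tested, 1.7% were higher, 3.4% lower and 2.06% DEGs. These shares are unsteady: the 651 genes called became 1435 by DESeq2, 289 with a replicate block, 112, 191 and 205 without Sham replicates 2, 1 and 3, and 331 without rt-PA+Acu replicate 2. The median log2 fold change was -0.03 for the enzymes and -0.11 for the other genes, beside 0.02 over all genes. The gene that fell was Lpl, at 15.4 to 17.5 CPM against 28.8 to 46.3 CPM in Sham (log2 fold change -1.06, SE 0.20, adjusted p = 0.0268). Its call was lost without Sham replicate 1 (adjusted p = 0.0565), Sham replicate 2 (0.0641) or rt-PA+Acu replicate 2 (0.0814), with all 12 libraries in 1 fit (0.154) and with a replicate block (0.0614). Msmo1 lay above Sham in every rt-PA+Acu library without being called (log2 fold change 0.36, SE 0.13, adjusted p = 0.134), and it was called without rt-PA+Acu replicate 3 (log2 fold change 0.45, adjusted p = 0.0494). Of the other members that were not called, Abcg1 also lay above Sham in every rt-PA+Acu library (log2 fold change 0.20, SE 0.11, adjusted p = 0.307). Below Sham in every such library lay Npc2 (log2 fold change -0.45, SE 0.12, adjusted p = 0.0723), Scap (log2 fold change -0.41, SE 0.12, adjusted p = 0.0841), Cyp46a1 (log2 fold change -0.33, SE 0.13, adjusted p = 0.179) and Srebf2 (log2 fold change -0.28, SE 0.14, adjusted p = 0.253). The share of all genes whose groups lay apart in this way was not computed, so these separations alone are not read as differences. DESeq2 called Lpl, Npc2 and Scap lower. None of 37 further pathway genes was called by edgeR, and 10 of them had an unadjusted p under 0.05, near the share over all genes, of which 2964 of 12775 did. Among the markers of cell types and neighbouring tissue, 4 of 5 striatal neuron, 2 of 6 homeostatic microglia, 1 of 6 astrocyte, 1 of 3 endothelial and 1 of 3 infiltrating myeloid markers tested fell relative to Sham, and the 1 choroid plexus marker tested, Aqp1, was higher. A p that misses the threshold does not show that levels were equal.

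Markers of glia moved between the groups as well. In bulk tissue, fewer cells of a type and less RNA per cell cannot be told apart. Over all genes tested, 27.3% were called higher and 26.6% lower in Model over Sham. In rt-PA+Acu over rt-PA, 17% were higher and 17.7% lower. These shares stand beside every count of called markers given below for those comparisons. Of 6 oligodendrocyte markers, 5 fell in Model and 0 were called in rt-PA+Acu over rt-PA by edgeR, with 0 of the 6 at an unadjusted p under 0.05 there, beside 6000 of 12999 genes. Their summed level, with Mbp the most abundant, was 11966, 15108 and 17905 CPM in Sham, 1672, 3796 and 8503 in Model, 2695, 11447 and 3364 in rt-PA and 21103, 8754 and 3212 in rt-PA+Acu. The spread within groups was wide, with the highest sums of Model, rt-PA and rt-PA+Acu in replicates 3, 2 and 1. Of 6 astrocyte markers, 5 fell in Model and 6 of 6 rose in rt-PA+Acu over rt-PA. Their summed level, with Slc1a3 the most abundant, was 3415, 4106 and 3537 CPM in Sham, 1622, 1893 and 1745 in Model, 1393, 1436 and 1931 in rt-PA and 3498, 3165 and 2697 in rt-PA+Acu. Each library of Model or rt-PA was under all of Sham and of rt-PA+Acu. Of the 6 neuron markers, 1 was higher and 3 were lower in Model, and 3 were higher in rt-PA+Acu, with Snap25 the most abundant. Their part in the sterol results was not tested.

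**Figure D5:**
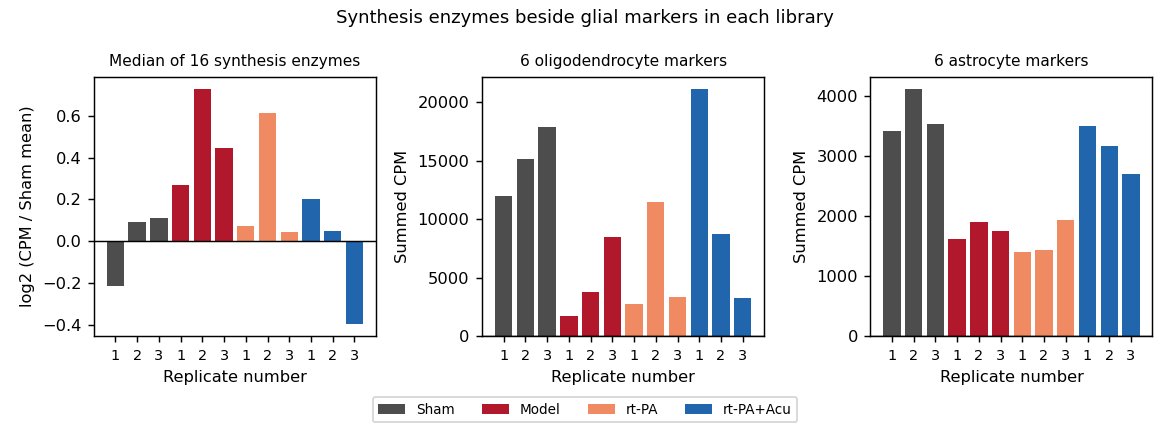
Median log2 level of 16 synthesis enzymes relative to the Sham mean (left) and summed CPM of 6 oligodendrocyte (middle) and 6 astrocyte markers (right) in each library (horizontal axis, 3 replicates for each group). The Model bars are at 0.27 to 0.73 on the left and at 1622 to 1893 CPM on the right. The highest replicate is the same on the left and in the middle in Sham, rt-PA and rt-PA+Acu, but not in Model.

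Markers of immune and vascular cells were also unequal. Of 6 homeostatic microglia markers, 1 was higher and 5 lower in Model, and 2 were higher and 1 lower in rt-PA+Acu. Their summed level was 537, 589 and 478 CPM in Sham, 435, 369 and 408 in Model, 420.3, 371 and 407 in rt-PA and 408, 436 and 375 in rt-PA+Acu. Of the infiltrating myeloid markers, 2 of 5 tested were higher in Model and 6 of 6 fell in rt-PA+Acu over rt-PA, and Lyz2 made up 83.4% of their sum, which was 62.2, 67.1 and 55.2 CPM in Sham, 101, 83.5 and 137 in Model, 369.8, 148 and 121 in rt-PA and 30.8, 26.4 and 34.9 in rt-PA+Acu. The highest sums were those of rt-PA replicates 1 and 2, and the lowest those of the 3 acupuncture libraries. Of 6 listed endothelial markers 3 were analysed. Of these, 1 was higher in Model and all 3 were lower in rt-PA+Acu, and their sum was 76.7, 95.5 and 68.8 CPM in Sham, 161, 194 and 296 in Model, 289, 181 and 216 in rt-PA and 48.7, 44.2 and 51.9 in rt-PA+Acu.

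Markers of neighbouring tissue were searched too. Of 5 striatal neuron markers, 5 were lower in Model and 1 was higher in rt-PA+Acu, and their sum, mostly Ppp1r1b, was 186, 704 and 544 CPM in Sham, 66.2, 105 and 151 in Model, 65.2, 112 and 95.7 in rt-PA and 209, 185 and 112 in rt-PA+Acu. Of 5 choroid plexus markers 2 were tested in Model over Sham, both higher, and 2 in rt-PA+Acu over rt-PA, 1 of them lower. The 5 markers summed to 1.85, 2.37 and 2.01 CPM in Sham, 16.3, 48.7 and 11.2 in Model, 17.6, 10.8 and 69.3 in rt-PA and 10.1, 3.14 and 15.1 in rt-PA+Acu. Aqp1 made up 73.95% of this sum, and the defining marker Ttr was at or under 3 counts in every library. The part of these immune, vascular and neighbouring markers in the sterol results was not tested either.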

How the data were processed

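RNA integrity numbers were above 7.0 per the labels. Poly(A) RNA was made into dUTP-stranded libraries and sequenced as 150-base pairs. The authors aligned reads to mRatBN7.2 with STAR 2.7.10a, and the deposited counts are whole-number counts per gene. The study's methods name Salmon 1.9.0 for counting, and the submitters' processing notes also list featureCounts 2.0.1. The strand setting and any use of molecular identifiers were not given in the sources used here, so reads of overlapping antisense genes may be mixed.

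From the counts, CPM were computed with TMM factors, and each pair of groups was tested on its own 6 libraries with edgeR 4.0.16 in R 4.3.3 (filterByExpr, glmQLFTest). Alternatives were DESeq2 1.42.0, other scalings and filters, 1 fit of all 12 libraries, a replicate block, a 2-fold threshold, and leaving out libraries. Values in every library are given for up to 6 synthesis enzymes and 10 other members with the largest called change, and up to 4 further pathway genes for each comparison are named. The test was run on simulated data first. Members and lists were chosen with earlier results of these data known. The promoter table is of another build than the counts. The results of 2 listed genes that are not members are not reported here.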

Additional observations from a re-analysis of the deposited data

How the results depend on the processing

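No called member changed direction under any alternative run. In Model over Sham, Acat2, Mvd, Idi1, Fdft1, Sqle, Msmo1, Hsd17b7, Insig1, Srebf1, Scap, Stard4, Soat1, Abcg1 and Cyp46a1 passed the adjusted p threshold under every alternative other than the 2-fold threshold, and in rt-PA+Acu over rt-PA so did Acat2, Mvd, Msmo1, Insig1, Srebf1, Soat1, Abcg1, Cyp46a1 and Cyp27a1. A 2-fold threshold, which is stricter by construction, left 2765 of all genes, 5 synthesis enzymes and 3 other members in Model over Sham, 1993, 2 and 3 in rt-PA+Acu over rt-PA, and 263 of all genes in rt-PA+Acu over Sham. DESeq2 called 192 genes in rt-PA over Model, and 1435 genes and 3 other members in rt-PA+Acu over Sham, where edgeR called 651 and 1. One fit of all 12 libraries called 3 genes in rt-PA over Model. Without 1 library, the calls ran from 0 to 3 genes in rt-PA over Model, from 2496 to 5417 genes and from 3 to 5 synthesis enzymes in rt-PA+Acu over rt-PA (5563 and 6 with 2 libraries left out), and in rt-PA+Acu over Sham from 112 to 856 genes, 0 to 1 enzymes and 0 to 1 other members. The causes were not tested. Nothing in the sources used here says that a replicate number links libraries, so pairing is not known. In Model over Sham, same-numbered libraries correlated at 0.11, 0.07 and 0.05, and each correlated best with its own number. That is a hint from the data and not the design. In each of the other comparisons at least 1 same-numbered correlation was negative. A replicate block gave 289 genes and 0 other members in rt-PA+Acu over Sham, and in rt-PA+Acu over rt-PA it gave 3694 genes, 4 enzymes and 6 other members, without Hsd17b7, Ebp and Stard4. Depth of 11678450 to 13616935 counts limits low genes such as Nr1h3 and Cyp27a1 most.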

Other observations

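Genes of the fatty acid branch that SREBP1 favours were called in both directions, at counts near the shares over all genes. In Model over Sham, 3 of 8 such genes were higher and 3 lower, beside 27.3% and 26.6% of all genes. Fasn, fatty acid synthase, rose by 0.50 on the log2 scale, and the desaturase genes Fads1 and Scd2 fell by 1.11 and 1.17. In rt-PA+Acu over rt-PA, 2 of 8 were higher and 2 lower, beside 17% and 17.7% of all genes, with Fads1 up by 0.87 and Fasn down (log2 fold change -0.43). The Scd2 groups overlapped, at 1285, 2350.5 and 1783 CPM in rt-PA and 3906, 1736 and 2254 in rt-PA+Acu. These 3 genes were chosen after their values were seen. Srebf1 itself fell in Model over Sham and rose in rt-PA+Acu over rt-PA, and its part in these genes was not tested.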
